A study of Mus musculus with 22 samples.

Results

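Cytochrome P450 (P450), glutathione S-transferase (GST) and UDP-glycosyltransferase (UGT) genes were followed in J1 mouse embryonic stem (ES) cells and in embryoid bodies, floating clumps of ES cells that differentiate into many cell types. The genes were chosen by symbol and by level. A symbol had to follow the family's naming pattern, with Cyp1a1, Cyp1b1 and the Cyp26 names left out, and the gene had to reach 0.5 FPKM (fragments per transcript length and sequencing depth) in at least 2 of the 22 libraries. Of 107 symbols with such names among 19721 genes listed, 49 met the rule, namely 26 of 72 P450, 19 of 20 GST and 4 of 15 UGT symbols. The rule used the level in every library, so the levels below describe the members and support nothing beyond that. Just inside the limit by their second highest value lay Ugt1a6a (0.50 FPKM), Cyp4b1 (0.51) and Cyp2c44 (0.55), and just outside it Cyp2e1 (0.44), Cyp3a13 (0.44) and Ugt1a7c (0.43).

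P450 enzymes are haem proteins that insert oxygen into sterols, fatty acids, vitamins and foreign chemicals, taking electrons from P450 oxidoreductase or from a mitochondrial ferredoxin. GST enzymes couple glutathione to electrophiles such as lipid peroxidation products, and UGT enzymes attach a sugar, which makes a substrate more soluble. Many of these genes are known for the adult liver, while others belong to neurons, steroid-making cells, airway epithelium or skin.

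The libraries held RNA of untreated ES cells (2 libraries) and of embryoid bodies at days 4, 9, 12, 18 and 28 (D4 to D28, as read from the titles). Each day had 2 libraries of the vehicle, 0.1% dimethyl sulfoxide (DMSO), and single libraries of 10 and of 100 nM tetrabromobisphenol A (TBBPA), a brominated flame retardant. All came from the J1 line, a single genotype, and the labels name no separate cultures, so a p-value measures only the spread between these libraries, which may be technical. Bulk RNA cannot tell fewer cells of a type from less RNA per cell. Total estimated counts were 18158583 to 18998141 per library. The ES libraries differed from each other more than the DMSO pairs did, with a chi-square per gene of 22.5 against 1.63 to 3.38, and the steps that rest on them were run without each. Tests were run with edgeR's quasi-likelihood F test over all genes with Benjamini-Hochberg adjustment, and a gene is said to have risen or fallen when its adjusted p was under 0.05. Log2 changes are given ± SE, and FPKM values are given for single libraries, DMSO replicates 1 and 2 first. The pair of TBBPA libraries of a day was set against the DMSO pair of that day, so the 2 doses served as the 2 samples. From D4 to D28 the chi-square per gene between the doses was 3.26, 5.42, 3.38, 6.81 and 7.95. Between the DMSO libraries it was 3.38, 1.63, 2.1, 2.31 and 1.7.

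The sequences shown are 4 promoter stretches of genes described below, and their part in the levels of these genes was not tested. Gstp1 and Gstp2 are adjacent pi-class GST copies that took different courses, Cyp2f2 was the most abundant P450 gene at D28 and was lower there with TBBPA, and Cyp46a1 rose with TBBPA at D12. Each stretch is the 250 bases before the gene's start in RefSeq (GRCm38.p6), written 5′ to 3′ on the strand of the gene, with the core of the xenobiotic response element (GCGTG, searched on both strands) in capitals.
Gstp1, chr19:4037913-4038162, minus strand: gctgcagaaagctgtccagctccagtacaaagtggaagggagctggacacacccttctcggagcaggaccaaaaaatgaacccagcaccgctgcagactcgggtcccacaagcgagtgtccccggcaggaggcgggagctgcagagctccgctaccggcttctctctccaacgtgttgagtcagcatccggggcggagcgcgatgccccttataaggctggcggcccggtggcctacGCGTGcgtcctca
Gstp2, chr19:4042222-4042471, minus strand: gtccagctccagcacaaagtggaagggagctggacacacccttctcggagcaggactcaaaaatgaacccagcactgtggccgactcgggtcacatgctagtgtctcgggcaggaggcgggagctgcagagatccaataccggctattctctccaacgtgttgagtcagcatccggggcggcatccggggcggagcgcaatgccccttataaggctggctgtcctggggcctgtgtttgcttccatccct
Cyp2f2, chr7:27119705-27119954, plus strand: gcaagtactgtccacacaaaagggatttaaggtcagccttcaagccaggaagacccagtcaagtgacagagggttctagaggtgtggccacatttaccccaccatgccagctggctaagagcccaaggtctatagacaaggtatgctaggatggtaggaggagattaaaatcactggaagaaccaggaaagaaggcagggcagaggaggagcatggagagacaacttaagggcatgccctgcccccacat
Cyp46a1, chr12:108334066-108334315, plus strand: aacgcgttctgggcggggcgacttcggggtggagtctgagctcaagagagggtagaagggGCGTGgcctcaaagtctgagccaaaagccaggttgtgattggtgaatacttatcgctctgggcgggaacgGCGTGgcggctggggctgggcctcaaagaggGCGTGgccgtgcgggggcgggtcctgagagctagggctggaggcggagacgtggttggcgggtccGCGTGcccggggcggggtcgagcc
The Gstp1 and Gstp2 stretches aligned with 208 identical and 27 mismatched bases (88.5% identical) and 30 gap positions. GCGTG occurred 1 time before Gstp1, 4 times before Cyp46a1 and at no position before Gstp2 or Cyp2f2. Windows of 300 bases around the start (250 before, 50 after) were found for 40 members. GCGTG lay in 17 of the 40 (42.5%) against 32.5% of all 27025 promoter windows, and the antioxidant response element core (TGACNNNGC, both strands, each motif counted on its own even where they share letters) in 4 (10%) against 12.5%. In 34 of the 40, the window ran into the start of a GENCODE transcript of the gene, and that of Cyp46a1 was not among them. A match describes letters in a window, not a site in use.

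GST transcripts made up most of the summed level of the 49 members. They held 94.2 and 94.3% of it in the ES libraries, 85.4 and 85.9% at D18 and 67.7 and 68.3% at D28 with DMSO. Their summed FPKM was 927.4 and 976.2 in ES cells, 452.8 and 463.4 at D18 and 707.4 and 711.2 at D28. The P450 sum lay between 51.0 and 75.6 in every control library up to D18 and was 331.2 and 323.0 at D28, of which Cyp2f2 alone supplied 66.9 and 67.6%. Without Cyp2f2 the P450 sum at D28 was 109.5 and 104.7, still above the 71.5 and 69.6 of D18. The UGT sum did not exceed 7.0 in any library.

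**Figure D1:**
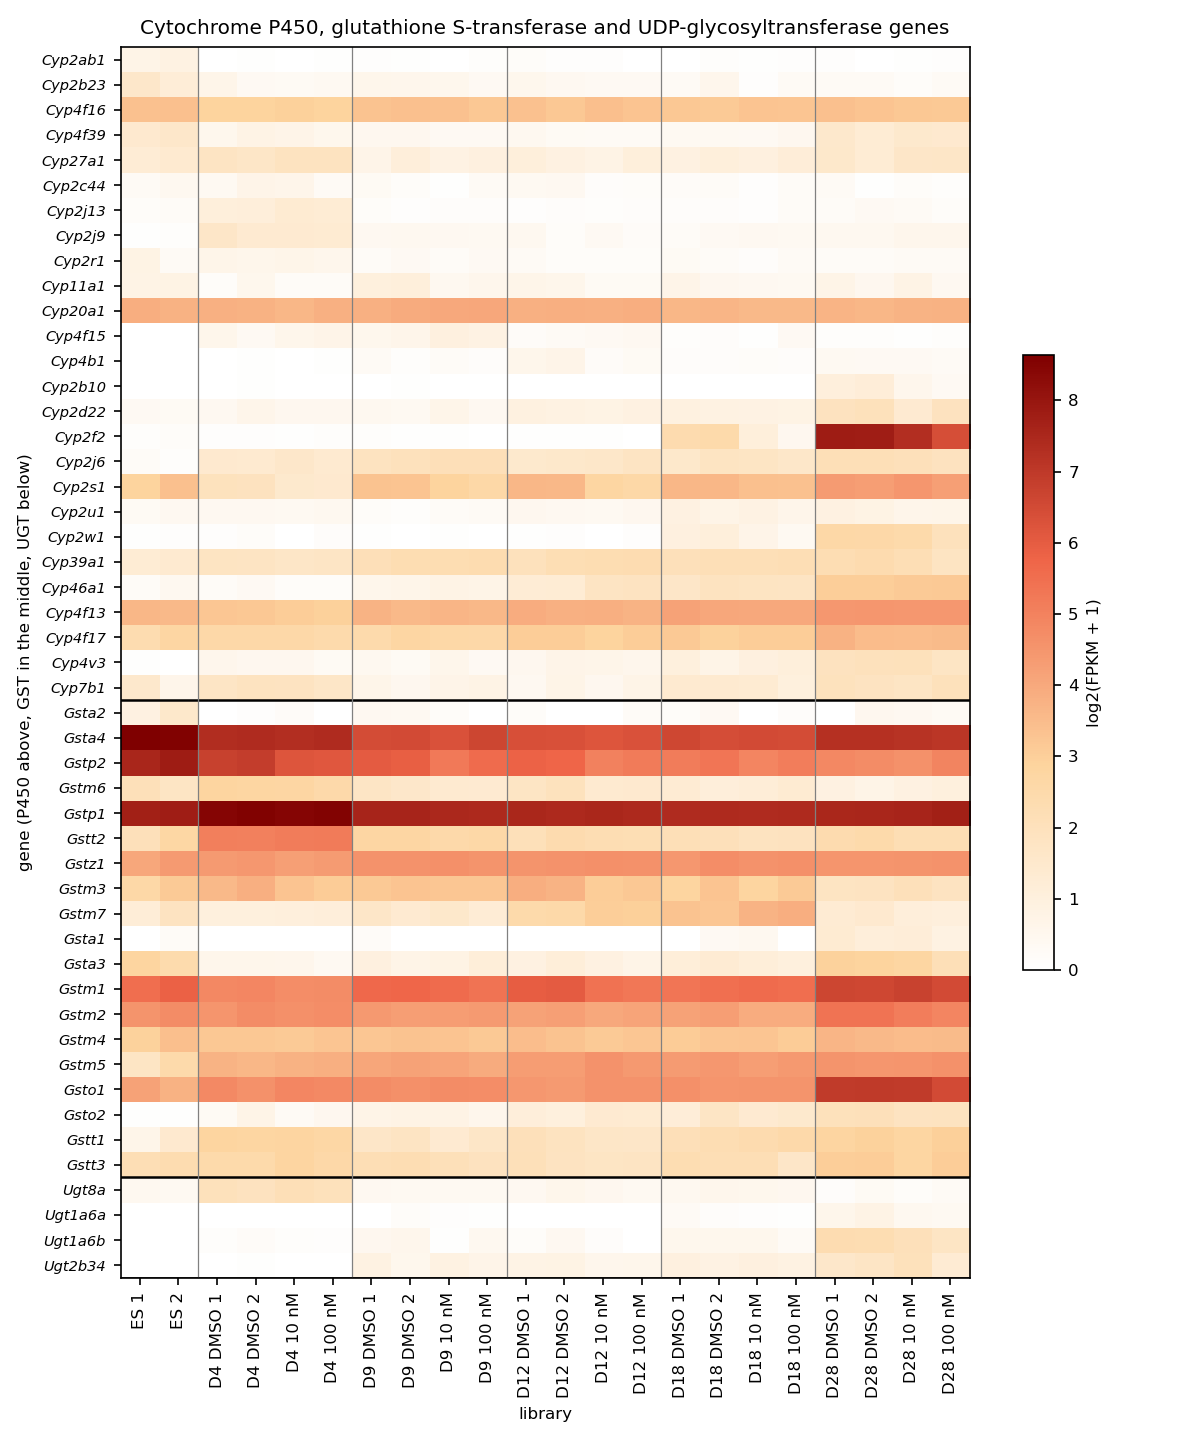
Level of each of the 49 enzyme genes (rows) in each of the 22 libraries (columns), as log2(FPKM + 1), P450 above, GST in the middle and UGT below, ordered within a family by the control group of highest mean. The darkest rows are Gsta4 and Gstp1, present in every library, and Cyp2f2 is dark only in the D28 libraries.

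**Figure D2:**
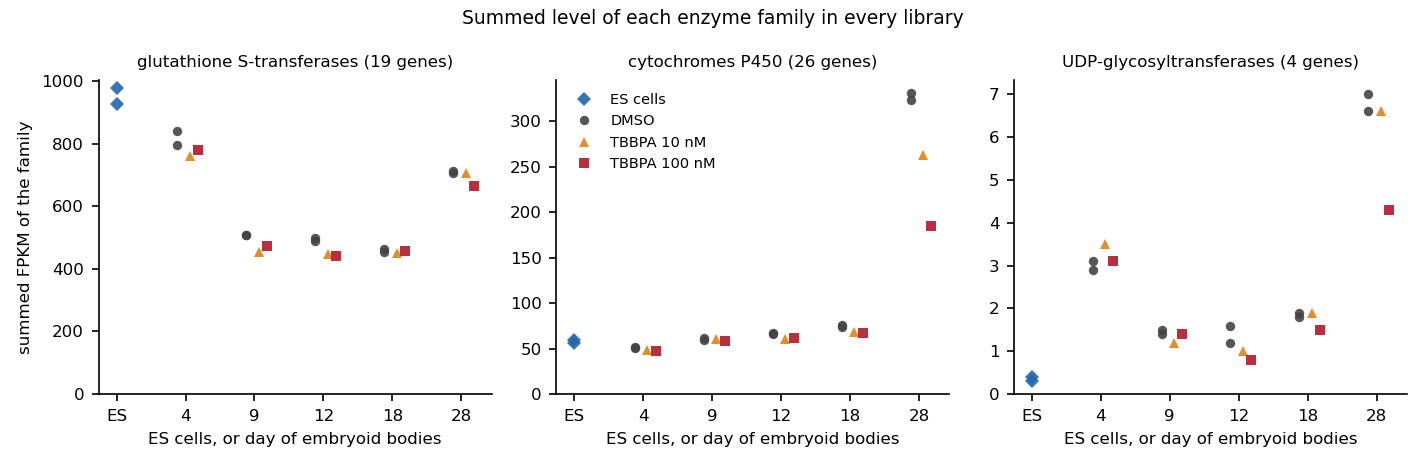
Summed FPKM of the GST, P450 and UGT members in each library (points), for ES cells and by day, with DMSO, 10 nM and 100 nM TBBPA as separate symbols. The P450 sum at D28 was 331.2 and 323.0 with DMSO, 263.4 at 10 nM and 184.6 at 100 nM TBBPA.

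The members of highest mean FPKM over the 22 libraries were Gstp1 (215.5), Gsta4 (137.3), Gstp2 (63.73), Gstm1 (52.96), Gsto1 (39.5), Cyp2f2 (31.51), Gstm2 (22.48), Gstz1 (21.76), Gstm5 (16.75) and Cyp4f13 (13.47). At least 0.5 FPKM in all 22 libraries was found for 22 members, 15 of them GST genes. In the controls, 26 members (53.1%) had their highest mean at D28, against 32.3% of the 15560 genes that reached the same level. A further 9 (18.4%) were highest at D4, 7 (14.3%) in ES cells, 4 (8.16%) at D9, 2 (4.08%) at D12 and 1 (2.04%), Gstm7, at D18. The shares of the 15560 genes were, in the same order, 15.9%, 22%, 8.62%, 6.36% and 14.8%. With 5 members at the limit in 1 group only (Cyp2ab1 and Gsta2 in ES cells, Cyp4b1 in D12 and Cyp2b10 and Ugt1a6a in D28 libraries with DMSO), part of this variation follows from how the genes were chosen, and the counts below are descriptions. Others reached the limit at a single day, with DMSO and with TBBPA. These were Cyp2j9, Cyp2j13 and Cyp2c44 at D4 and Gsta1 and Ugt1a6b at D28, and the same holds for them. No member owed its place to TBBPA libraries alone.

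Copies of similar sequence limit some values. Of the 50-base stretches in a gene's transcripts, 90.5% were shared with other genes for Gsta1, 79.8% for Ugt1a6b, 54.3% for Gstp2, 52.1% for Ugt1a6a, 49.8% for Gsta2 and 33.7% for Gstp1. The split between such copies is uncertain, so their values are also given as sums of Gstp1 and Gstp2, of Gsta1 and Gsta2, and of Ugt1a6a and Ugt1a6b. Gstm3 (28.8%), Gstm1 (18.9%), Cyp4f16 (17.4%) and Gstt3 (12.5%) shared less, and 20 members shared none.

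Over the control course the members changed about as often as other genes until D18. From ES cells to D4, 17 members rose and 13 fell (61.2% changed), while 31.9% of the 16203 genes tested rose and 30.3% fell, 62.3% in all. From D4 to D9, 12 rose and 18 fell (61.2%), beside 31.9% and 28.9% of all genes, 60.8% together. From D9 to D12 it was 8 and 6 (28.6%), beside 17.5% and 15.6%, 33.1% together. From D12 to D18 it was again 8 and 6 (28.6%), beside 20.7% and 17.1%, 37.7% together. From D18 to D28 more members rose than fell, 26 (53.1%) against 5 (10.2%), beside 24.9% and 28.1% of all genes, 53% together. By family these were 13 P450 genes up and 0 down, 10 GST genes up and 4 down, and 3 UGT genes up and 1 down. The members' median log2 change was then 0.61 and that of all genes -0.03. Between ES cells and D4 the 2 medians were 0.22 and 0, from D4 to D9 -0.07 and 0.01, from D9 to D12 -0.07 and 0, and from D12 to D18 0 and 0. Setting members with no counts in the lower group at the bound of 3 counts left these medians as they were. The middle intervals depended on single libraries. From D9 to D12, 7 members passed without DMSO replicate 1 of D9, 3 without replicate 2, 3 without replicate 1 of D12 and 6 without replicate 2, and library size alone as scaling gave 9 up and 3 down in place of 8 and 6. From D12 to D18, 8 passed without DMSO replicate 1 of D12 and 9 without replicate 2.

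The pi-class pair moved apart during development. Gstp1, the main pi-class transferase, was at 210.47 and 217.13 FPKM in ES cells, 348.87 and 376.89 at D4, 189.89 and 192.18 at D9, 180.43 and 172.21 at D12, 164.48 and 167.26 at D18 and 179.56 and 185.98 at D28. It rose to D4 (0.73 ± 0.06, adjusted p = 4.5e-08) and fell to D9 (-1.07 ± 0.06, adjusted p = 1.16e-09), and every later control library lay below the ES libraries. Gstp2 began at the same height, 185.74 and 225.18, and declined to 108.43 and 116.33 at D4, 64.71 and 59.83 at D9, 55.51 and 52.67 at D12, 34.54 and 38.95 at D18 and 27.70 and 25.73 at D28. Its falls passed from ES to D4 (-0.90 ± 0.09), D4 to D9 (-0.99 ± 0.09), D12 to D18 (-0.60 ± 0.10) and D18 to D28 (-0.49 ± 0.11), and the libraries of successive days did not overlap. The summed pair did not pass from ES to D4 (0.13 ± 0.06, adjusted p = 0.0886) or from D18 to D28 (0.02 ± 0.06, adjusted p = 0.858). Gstp1 is part of the sum, so the sum cannot test the call on Gstp2 alone. That call remains uncertain with the division of reads between the copies. The sum did fall from D4 to D9 (-1.05 ± 0.06), D9 to D12 (-0.20 ± 0.06) and D12 to D18 (-0.23 ± 0.06).

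Among the alpha class, Gsta4, which conjugates 4-hydroxynonenal from oxidised lipids, was the most abundant member in ES cells. It stood at 398.57 and 374.38 FPKM there, 160.13 and 165.50 at D4, 82.04 and 79.69 at D12 and 150.93 and 150.41 at D28. It fell to D4 (-1.28 ± 0.06), fell again to D9 (-1.04 ± 0.06) and rose from D18 to D28 (0.70 ± 0.06), with no overlap between the libraries of ES, D4, D12 and D28. Gsta3 followed the same outline at a lower level, from 6.08 and 4.30 in ES cells through 0.51 and 0.50 at D4 to 6.57 and 6.44 at D28, falling by 3.37 ± 0.27 and later rising by 2.25 ± 0.22. The related Gsta1 and Gsta2, summed, fell from ES to D4 (-5.35 ± 0.90, adjusted p = 0.000132) and rose from D18 to D28 (1.99 ± 0.56, adjusted p = 0.00837). Gsta1 shared most with Gm3776 (75.7%), which this sum leaves out, so its values remain uncertain. By itself Gsta2 had 45.6 counts in the ES pair and 1.2 at D4, a ratio of 39.9 with an exact 95% interval of 7.97 to 1880 that covers counting error only. Gsta2 is a member through the ES pair alone, so this ratio is a description that its selection favoured. The same holds for the fall of the sum to D4. Gsta1 is a member through D28 libraries alone, so its selection favoured the rise of the sum to D28.

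The mu class is encoded by 7 neighbouring members (Gstm1 to Gstm7), whose courses differed. Gstm1 and Gstm2 had their highest control values at D28. Gstm1 went from 38.98 and 43.65 FPKM at D18 to 98.09 and 96.24 (1.21 ± 0.09), and Gstm2 from 17.03 and 18.37 to 40.35 and 41.05 (1.17 ± 0.10). Gstm7 was highest at D18, with 2.13 and 1.58 at D9, 4.61 and 4.82 at D12, 9.13 and 8.26 at D18 and 1.46 and 1.68 at D28. It rose at both middle steps (1.33 ± 0.23 and 0.88 ± 0.19) and fell at the last (-2.63 ± 0.23). Gstm3 was at 13.66 and 12.18 at D12, 6.10 and 8.84 at D18 and 2.53 and 2.55 at D28, and its last fall was -1.59 ± 0.24. Gstm6, at 6.06 and 5.73 at D4, fell to D9 by 1.60 ± 0.21 and was at 0.88 and 0.67 at D28. Gstm5, a mu-class gene known for brain and testis, rose to D4 (1.75 ± 0.20) from 2.31 and 4.61 to 12.35 and 11.49, and Gstm4 stayed between 6.64 and 11.69 in the controls.

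The theta and omega classes had single large steps. Gstt2, a theta-class transferase, peaked at D4, with 3.13 and 5.37 FPKM in ES cells, 33.19 and 32.37 at D4 and 5.65 and 5.56 at D9. It rose by 2.94 ± 0.17 and fell by 2.74 ± 0.16, and its neighbour Gstt1 moved the same way, up by 2.28 ± 0.29 and then down by 1.53 ± 0.26. Gsto1, an omega-class enzyme that reduces dehydroascorbate and arsenic species, was at 23.83 and 21.92 at D18 and 121.33 and 123.43 at D28 (2.39 ± 0.10, adjusted p = 6.24e-10). The D28 libraries of Gsto1 lay far above every earlier control library, of which the highest was 26.95. Gstz1, the maleylacetoacetate isomerase of tyrosine breakdown, stayed between 15.35 and 25.04 over all 22 libraries and passed at no step.

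Of the P450 genes known for airway and other surface epithelium, Cyp2f2, which activates naphthalene in club cells of the mouse airway, reached the highest level. It was listed at 0.14 FPKM or less in every library up to D12, at 4.17 and 4.59 at D18 and at 221.70 and 218.26 at D28. The counts of the D12 and D18 DMSO pairs were 2 and 300, a ratio of 147 with an exact 95% interval of 40.2 to 1220 for counting error only, and the rise to D28 was 5.62 ± 0.08 (adjusted p = 2.08e-14). Cyp2w1, known for fetal gut and tumours, moved at the same steps, from at most 0.05 in the D12 DMSO libraries to 0.97 and 1.07 at D18 and 5.08 and 4.99 at D28 (4.57 ± 0.40, then 2.23 ± 0.20). Cyp2f2 and Cyp2w1 reached 0.5 FPKM in D18 and D28 libraries alone, so their selection favoured these rises. Cyp2b10, a phenobarbital-inducible enzyme of liver and lung, had no counts at D18 and 76.9 in the D28 pair, at least 25.9-fold higher with a floor of 3 counts over the group, a difference that its selection on the D28 pair favoured. Cyp2s1, an epithelial P450, was at 6.32 and 9.58 in ES cells, 2.85 and 2.72 at D4, 9.09 and 8.82 at D9, 11.23 and 11.18 at D12, 11.47 and 11.30 at D18 and 19 and 18.09 at D28. It fell to D4 (-1.55 ± 0.16), rose to D9 (1.54 ± 0.16) and rose again to D28 (0.68 ± 0.13).

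Markers of several cell types moved beside these genes. A list of 12 mucosal and airway genes, chosen after its values were seen, summed to 26.1 to 28.2 CPM (counts scaled to library size) at D12, 56.3 to 63.6 at D18 and 462.0 to 463.0 at D28 with DMSO. Its club cell secretoglobin Scgb1a1 and the alveolar surfactant gene Sftpc did not exceed 0.05 and 0.1 CPM in the DMSO libraries of D18 and D28. The 12 liver markers, by contrast, summed to 1040.0 to 1060.0 CPM at D9 and 214.0 to 222.0 at D28, of which 2 rose and 4 fell from D18 to D28. In the D28 DMSO pair Afp was at 72.1 and 77.3, Ttr at 59.5 and 61.1, Hnf4a at 24.3 and 24.0 and Alb at 4.20 and 4.60, while Serpina1a, Tat and G6pc were at 0. Apart from Cyp2c44, whose highest value was 0.63 FPKM, no Cyp2c gene and no Cyp3a gene was a member. Fibroblast markers (6 genes) summed to 3580.0 to 3750.0 CPM at D18 and 10200.0 to 10500.0 at D28. The part of these cell types in the enzyme levels was not tested.

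Enzymes of sterols and steroids followed separate courses. Cyp46a1, the cholesterol 24-hydroxylase of neurons, was at 0.20 and 0.28 FPKM at D4, 0.52 and 0.56 at D9, 1.36 and 1.40 at D12, 2.13 and 2.63 at D18 and 7.17 and 7.07 at D28. Every one of these steps passed, with log2 changes of 1.10 ± 0.33, 1.31 ± 0.23, 0.70 ± 0.18 and 1.53 ± 0.16, and no 2 neighbouring days overlapped. The D4 to D9 call was lost without DMSO replicate 1 of D4 or replicate 2 of D9, and the D12 to D18 call by DESeq2 and without either D12 library or replicate 2 of D18. Neuron markers (6 genes) summed to 682.0 to 698.0 CPM at D18 and 112.0 to 117.0 at D28, and astrocyte and radial glia markers (5 genes) to 223.0 to 227.0 and 997.0 to 1010.0, values whose part in the Cyp46a1 level was not tested. Cyp7b1, an oxysterol 7α-hydroxylase, fell from 2.29 and 2.65 at D4 to 0.56 and 0.39 at D9 (-2.51 ± 0.43) and rose from 0.34 and 0.64 at D12 to 1.66 and 1.67 at D18 (1.72 ± 0.46), the last not passing without DMSO replicate 1 of D12. Cyp11a1, which cleaves the cholesterol side chain to start steroid synthesis, had its highest control values at D9, 0.99 and 1.09, after 0.14 and 0.43 at D4 (1.38 ± 0.37), and fell to 0.57 and 0.52 at D12 (-1.11 ± 0.34). The rise did not pass without DMSO replicate 1 of D4, nor the fall by DESeq2 or without any 1 of the 4 libraries. Cyp39a1, which hydroxylates 24-hydroxycholesterol, rose to D4 and to D9 (0.67 ± 0.16 and 0.38 ± 0.15), and Cyp27a1, the mitochondrial sterol 27-hydroxylase, fell from D4 to D9 (-1.52 ± 0.27) and rose from D18 to D28 (0.73 ± 0.28). Cyp39a1 and Cyp27a1 lie outside the rule for naming genes, and their calls were not followed through the alternatives.

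Enzymes of fatty acids and eicosanoids included the Cyp2j epoxygenases and the Cyp4f hydroxylases. Cyp2j6 and its neighbour Cyp2j9 both rose to D4, Cyp2j6 from 0.18 and 0.09 FPKM to 1.68 and 1.65 (3.59 ± 0.27) and Cyp2j9 from 0.03 and 0.09 to 2.10 and 1.59 (4.94 ± 0.48). They then parted, Cyp2j6 rising to 2.67 and 2.89 at D9 (0.60 ± 0.16) while Cyp2j9 fell to 0.33 and 0.36 (-2.54 ± 0.34). Cyp2j13 was likewise high at D4, 1.11 and 1.16, and fell to 0.13 and 0.07 at D9 (-2.76 ± 0.35). Cyp2j9 and Cyp2j13 are members through D4 libraries alone, so their selection favoured these steps. Cyp4f39, which hydroxylates ultra-long fatty acids of the skin barrier, was at 1.71 and 2.0 in ES cells, 0.45 and 0.69 at D4, 0.30 and 0.30 at D18 and 1.81 and 1.41 at D28, falling by 1.74 ± 0.24 and later rising by 2.38 ± 0.28. Cyp4f13 and Cyp4f17 were highest at D28, at 20.58 and 21.30 and at 12.66 and 10.30, and rose over the last step by 0.34 ± 0.09 and 0.58 ± 0.15. Cyp4v3 had 3 counts in the ES pair and 47 at D4, a ratio of 15.4 (exact 95% interval 4.97 to 77.6), and rose again to 2.77 and 2.91 FPKM at D28 (1.76 ± 0.23). Cyp2ab1 and Cyp2b23 were highest in ES cells, at 0.64 and 0.83 and at 1.96 and 1.32, and no later control library exceeded 0.13 and 0.57. The ES pair alone made Cyp2ab1 a member, so its selection favoured this. Cyp20a1, an orphan P450, lay between 10.83 and 15.40 over all libraries and fell only from D12 to D18 among the control steps (-0.26 ± 0.08), a call lost under 6 of 10 alternatives, among them the omission of any 1 of the 4 libraries. Cyp2d22 rose at D12 (1.30 ± 0.26) and at D28 (1.73 ± 0.19), to 2.75 and 3.05.

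The UGT members were few and low. Ugt8a, which makes the galactosylceramide of myelin rather than conjugating drugs, was at 0.36 and 0.31 FPKM in ES cells, 3.0 and 2.73 at D4 and 0.33 and 0.30 at D9 (3.06 ± 0.25, then -3.34 ± 0.25). Outside D4, Ugt8a reached 0.5 FPKM only in DMSO replicate 2 of D12, so its selection favoured both steps. Ugt1a6a and Ugt1a6b, which glucuronidate phenols, summed, rose from D18 to D28 by 2.78 ± 0.26 (adjusted p = 1.43e-06), with Ugt1a6b at 4.0 and 3.83 at D28. Ugt1a6a, a member through the D28 DMSO pair alone, shared most with Ugt1a7c (51.1%), which the sum leaves out. Ugt2b34 had 2 counts at D4 and 73.9 at D9, a ratio of 33.0 (exact 95% interval 8.82 to 278), and was highest at D28, 1.94 and 2.26. With TBBPA neither Ugt1a6 copy passed in the mean over days (adjusted p = 0.0958 and 0.0523), while their sum fell by 0.74 ± 0.21 (adjusted p = 0.0165). Ugt1a6b reached 0.5 FPKM in D28 libraries alone, so the selection of both copies favoured the rise of the sum to D28. That of Ugt1a6a also favoured a fall with TBBPA. The sum was chosen after seeing the data, and its test supports nothing.

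With TBBPA, few members changed at any day. At D4, 1 member fell and none rose (2.04% of 49), while 0.458% of the 16383 genes tested changed, 0.0855% up and 0.372% down. At D9, 2 fell (4.08%), beside 2.34% of all genes, 1.37% up and 0.964% down. At D12, 2 rose and 5 fell (14.3%), beside 21.1% of all genes, 11.9% up and 9.19% down. D18 had 1 up and 1 down (4.08%), beside 10.5% of all genes, 5.96% up and 4.56% down, and library size alone as scaling gave 1 up and 2 down. D28 had 3 down (6.12%), beside 7.09% of all genes, 3.65% up and 3.44% down. Averaged over the 5 days and both doses, 6 of the 47 members tested fell and none rose (12.8%), beside 22.1% of all genes, 11.7% up and 10.4% down, and the members' median was -0.06 against 0.01 for all genes. The effect differed between days for 3 members (6.12%), beside 10.4% of all genes. When each DMSO pair was summed to 1 library, 3 members passed at D12, none at the other days or between days, and 4 in the mean. Single libraries moved these counts. At D4 none passed when any library of the day was left out. At D9 none passed without either DMSO library and 1 without either dose. At D12, 4 passed without DMSO replicate 1. At D18, 1 passed without either DMSO library and none without the 100 nM library. At D28, none passed without either DMSO library, 1 without the 100 nM and 6 without the 10 nM library. In the mean, 11 passed without the D9 100 nM library, and between days 6 without either ES library or the D28 10 nM library.

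**Figure D3:**
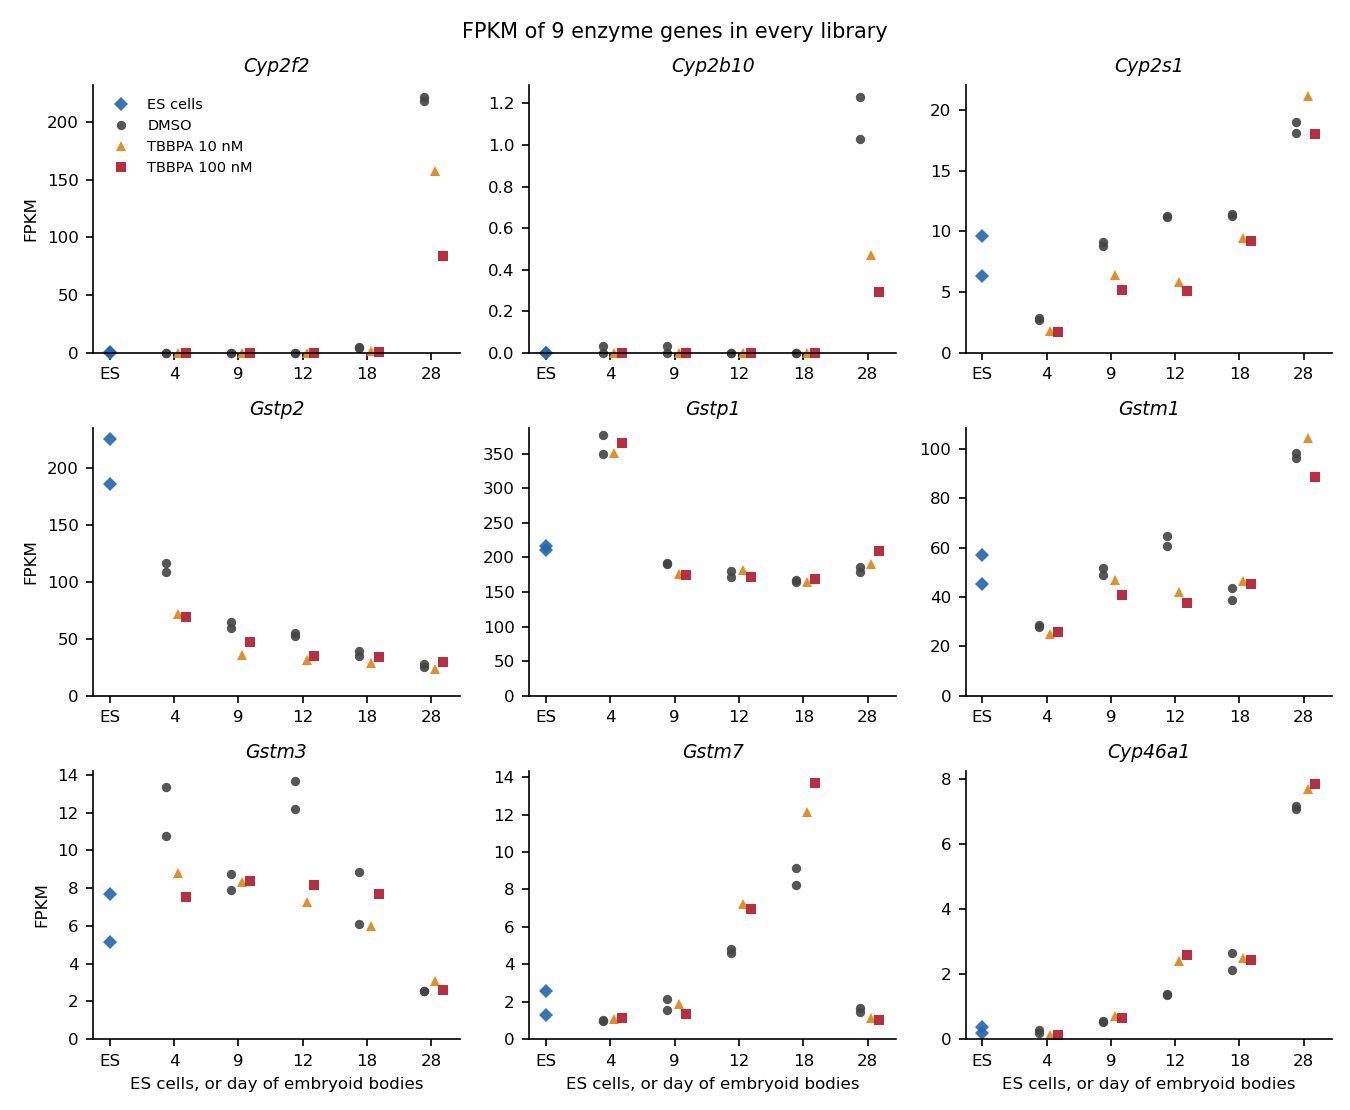
FPKM of 9 enzyme genes in every library (points) for ES cells and by day, with DMSO, 10 nM and 100 nM TBBPA as separate symbols and a linear axis from 0 for each gene. Cyp2f2 at D28 is at 221.70 and 218.26 with DMSO, 158.01 with 10 nM and 84.27 with 100 nM, and Gstp1 with TBBPA overlaps its DMSO pair at D4, D12 and D18.

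Cyp2f2 was lower with TBBPA at both days on which it was present. At D18 it was at 4.17 and 4.59 FPKM with DMSO, 1.09 with 10 nM and 0.41 with 100 nM, and at D28 at 221.70 and 218.26, 158.01 and 84.27. In both cases the TBBPA libraries lay below the DMSO pair and the 100 nM library lowest. The log2 change was -2.51 ± 0.49 at D18 (adjusted p = 0.00498) and -0.83 ± 0.21 at D28 (adjusted p = 0.0296), and -1.18 ± 0.16 in the mean over days (adjusted p = 0.000166). At D18 it did not pass without the 100 nM library (adjusted p = 0.0705) or with the DMSO pair summed (0.064), and at D28 it did not pass without DMSO replicate 1 (0.138), replicate 2 (0.146) or with the pair summed (0.416). Its sign was the same under all 12 alternatives at each of these days. In the mean over days it passed under all 32 alternatives, between -2.41 and -0.53. No library of D4 to D12 had more than 3 counts of Cyp2f2, so this mean rests almost wholly on D18 and D28. It fits 1 effect to days whose own changes were -2.51 and -0.83. The P450 sum at D28 without Cyp2f2 was 105.4 with 10 nM and 100.3 with 100 nM, beside 109.5 and 104.7 with DMSO.

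The mucosal and airway list, chosen after its values were seen, moved beside Cyp2f2. It summed to 221.0 to 364.0 CPM with TBBPA at D28, against 462.0 to 463.0 with DMSO, and to 33.2 to 44.8 against 56.3 to 63.6 at D18. At both days the same 8 of its 12 genes (Cbr2, Aldh1a1, Muc16, Muc5b, Ltf, Lcn2, Bpifa1 and Wfdc2) had both TBBPA libraries below both DMSO libraries, and none had them above. The share of all genes with such a separation was not counted, so this describes the list and supports nothing beyond it. Of the 6 stratified and simple epithelium markers, Krt5, Krt8 and Krt18 were above the DMSO pair in both TBBPA libraries at D28 and Trp63 below it, while at D18 Krt5 was above and Epcam, Krt8, Krt18 and Trp63 were below. Whether the lower Cyp2f2 follows the number of such cells was not tested.

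Other P450 genes that changed were lower with 1 exception. Cyp2b10 was at 1.03 and 1.23 FPKM with DMSO, 0.47 with 10 nM and 0.29 with 100 nM at D28 (-1.54 ± 0.44, adjusted p = 0.0483), a call that ended under 8 of 11 alternatives, the omission of any 1 of the 4 libraries among them. It is a member through that DMSO pair alone, so its selection favoured a fall with TBBPA and the test supports nothing. Cyp2s1 was below the DMSO pair in both TBBPA libraries from D4 to D18. Its values were 2.85 and 2.72 with DMSO, 1.77 and 1.70 with 10 and 100 nM at D4, 9.09 and 8.82, 6.40 and 5.18 at D9, 11.23 and 11.18, 5.79 and 5.07 at D12, 11.47 and 11.30, 9.47 and 9.17 at D18, and 19 and 18.09, 21.14 and 18.04 at D28. Its fall passed at D9 (-0.63 ± 0.14, adjusted p = 0.0171) and at D12 (-1.02 ± 0.14, adjusted p = 2.2e-05), did not pass at D4 (-0.68 ± 0.19, adjusted p = 0.149), and differed between days (adjusted p = 0.00298). The D12 call held under all 12 alternatives and that of D9 under 6 of 12, being lost without either DMSO library or the 100 nM library. The 6 epithelial markers summed to 1310.0 to 1340.0 CPM with DMSO and 812.0 to 923.0 with TBBPA at D12, and to 1580.0 to 1600.0 and 1240.0 to 1270.0 at D9. Krt8 (584.0 and 559.0) and Krt18 (607.0 and 588.0) were the largest terms with DMSO at D12. Of the 6 markers, 3 fell and none rose at D12, and 2 fell and none rose at D9. The part of this movement in Cyp2s1 was not tested.

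Cyp46a1 was the P450 gene that rose. At D12 it was at 1.36 and 1.40 FPKM with DMSO, 2.40 with 10 nM and 2.58 with 100 nM (0.82 ± 0.18, adjusted p = 0.00199), with no overlap, and of 12 alternatives only the summed DMSO pair ended the call (0.0672). At D18 the libraries overlapped (2.13 and 2.63, 2.49 and 2.42), and at D28 the TBBPA libraries were higher by less than the test could call (7.17 and 7.07, 7.67 and 7.85, adjusted p = 0.57). Neuron markers summed to 276.0 to 295.0 CPM with DMSO and 555.0 to 590.0 with TBBPA at D12, with 5 of 6 markers risen. At D18, where Cyp46a1 overlapped, they summed to 682.0 to 698.0 and 1050.0 to 1120.0, with 6 of 6 risen. Astrocyte and radial glia markers summed to 84.8 to 85.9 with DMSO and 143.0 to 146.0 with TBBPA at D12, with 1 of 5 risen. The part of these cell types in Cyp46a1 was not tested. In the mean over days Cyp11a1 and Cyp2w1 also fell, by 0.66 ± 0.20 (adjusted p = 0.0238) and 0.64 ± 0.21 (adjusted p = 0.0318). Cyp11a1 reached 0.5 FPKM in 8 control libraries and 1 TBBPA library. Its selection therefore favoured a fall with TBBPA, and its test supports nothing. Cyp11a1 was at 0.99 and 1.09 with DMSO, 0.37 and 0.46 with TBBPA at D9, and the mean did not pass under 7 of 33 alternatives, among them without DMSO replicate 2 of D9 (0.0505), without its 10 nM library (0.0601) and without day 9, 12 or 18. Cyp2w1 was at 0.97 and 1.07, 0.61 and 0.32 at D18 and 5.08 and 4.99, 4.61 and 2.90 at D28, and its mean did not pass under 11 of 32 alternatives, among them each library of D18 and the D28 100 nM library left out. Cyp2b10 fell in the mean too (-1.58 ± 0.36), on its D28 values, and Cyp4b1 fell at D12 (-1.34 ± 0.47) from 0.51 and 0.60 to 0.17 and 0.26. Cyp4b1 is a member through that D12 DMSO pair alone, so its selection favoured a fall there and the test supports nothing. Both lie outside the rule for naming genes in those comparisons and were named after their values were seen.

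**Figure D4:**
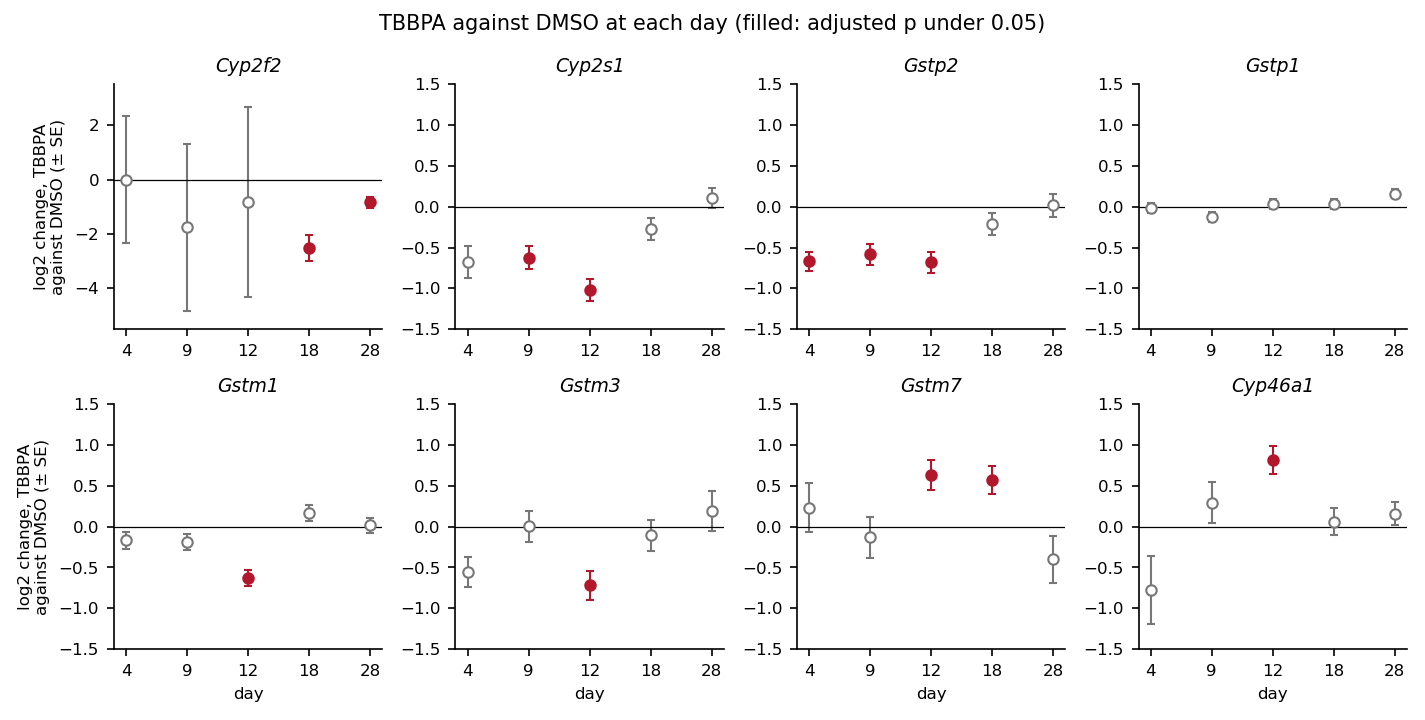
Log2 change with TBBPA against DMSO at each day (points, bars ± SE) for 8 enzyme genes, filled where the adjusted p was under 0.05 and open elsewhere, with a wider axis for Cyp2f2, which had almost no counts before D18. Gstp2 is near -0.66, -0.58 and -0.68 at D4, D9 and D12 and near 0 at D28, while Gstp1 is at most 0.16, at D28, and at least -0.12, at D9.

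Among the GST genes, Gstp2 was lower with TBBPA at the first 3 days. It was at 108.43 and 116.33 FPKM with DMSO, 71.97 with 10 nM and 69.44 with 100 nM at D4, at 64.71 and 59.83, 35.81 and 47.23 at D9, and at 55.51 and 52.67, 31.35 and 34.95 at D12. The TBBPA libraries lay below the DMSO pair at these days and, by less, at D18 (34.54 and 38.95, 29.05 and 33.67), whereas at D28 (27.70 and 25.73, 23.47 and 29.70) the ranges overlapped. Its log2 changes were -0.66 ± 0.12 (adjusted p = 0.0145), -0.58 ± 0.13 (0.0144) and -0.68 ± 0.13 (0.000798), then -0.21 ± 0.13 (0.389) at D18 and 0.02 ± 0.14 (0.953) at D28, and they differed between days (adjusted p = 0.0407). The D4 call was lost when any 1 of its 4 libraries was left out the D9 call without either DMSO library or the 10 nM library, and the D12 call under none of 12 alternatives. Gstp1 showed no such fall, with -0.01 ± 0.06, -0.12 ± 0.06 and 0.03 ± 0.06 at D4, D9 and D12. Summed, the pair changed by -0.15 ± 0.06 (adjusted p = 0.416), -0.23 ± 0.07 (0.0763) and -0.11 ± 0.07 (0.244) at those days and by -0.07 ± 0.04 (0.155) in the mean. Gstp1 held most of the summed counts, 4660 and 5010 beside 1530 and 1640 of Gstp2 with DMSO at D4. A sum that did not pass therefore cannot test the call on Gstp2, which remains uncertain with the division of reads between 2 copies. Pluripotency markers (5 genes, high in ES cells as Gstp2 is) summed to 2180.0 to 2200.0 CPM with DMSO and 1880.0 with either dose at D4, to 873.0 to 895.0 and 598.0 to 866.0 at D9, and to 802.0 to 838.0 and 525.0 to 531.0 at D12. Their part in Gstp2 was not tested.

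The mu-class neighbours moved in opposite directions at D12. Gstm1 was at 60.73 and 64.76 FPKM with DMSO, 41.94 with 10 nM and 37.67 with 100 nM, and Gstm3 at 13.66 and 12.18, 7.25 and 8.16. Gstm7 was at 4.61 and 4.82, 7.20 and 6.96. For all 3 the DMSO and TBBPA libraries did not overlap, with falls of -0.63 ± 0.10 (adjusted p = 0.000108) and -0.72 ± 0.18 (0.00645) and a rise of 0.63 ± 0.19 (0.0188). The other 4, Gstm2, Gstm4, Gstm5 and Gstm6, did not pass at D12, with changes of -0.14, -0.16, 0.23 and -0.60. At D18 Gstm7 was again higher, at 9.13 and 8.26, 12.13 and 13.70 (0.57 ± 0.17, adjusted p = 0.0331), and Gstm1 did not pass (0.17 ± 0.10, adjusted p = 0.34). The effect on Gstm1 differed between days (adjusted p = 0.00532), and for Gstm7 and Gstm3 that test did not pass (0.116 and 0.109). Both calls on Gstm7 were lost under 8 of 12 alternatives, among them the omission of any 1 of the 4 libraries of the day. Those on Gstm1 and Gstm3 at D12 held under 12 and 7 of 12, and Gstm3 did not pass without DMSO replicate 1 or the 10 nM library. Neuron markers, which peaked with Gstm7 at D18, summed there to 682.0 to 698.0 CPM with DMSO and 1050.0 to 1120.0 with TBBPA, and their part was not tested. Fibroblast markers at D12 summed to 1530.0 to 1600.0 with DMSO and 944.0 to 1130.0 with TBBPA, and liver markers to 974.0 to 997.0 and 443.0 to 511.0, which was not tested either. At D28 Gstm2 was at 40.35 and 41.05 with DMSO, 34.02 with 10 nM and 29.20 with 100 nM (-0.33 ± 0.10, adjusted p = 0.0367), a call lost without either DMSO library or without the 100 nM library.

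The test over the days did not tell the 2 doses apart. Over the 5 days 0 of 47 members differed between 100 and 10 nM by edgeR, as did 0% of all genes (0% up and 0% down), and DESeq2 and limma also called none. At an unadjusted p under 0.05 there were 2, Cyp2f2 (-0.88 ± 0.23, adjusted p = 0.433) and Ugt2b34 (-0.53 ± 0.22, adjusted p = 0.739). Cyp2f2 passed in this comparison when day 18 was left out. From D9 on, the 2 doses of a day differed from each other by chi-square more than the DMSO libraries did. Each dose at a day is 1 library and has no replicate of its own.

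The rest of the detoxification pathway was read from 8 lists that hold no member. At the D18 to D28 interval, 6 of 10 electron donors and partners of P450 rose and none fell, led by Por, the P450 oxidoreductase (0.94 ± 0.08). Of 18 other oxidising, reducing and hydrolysing enzymes tested, 13 rose and 2 fell, among them the flavin monooxygenase Fmo2 (3.91 ± 0.37), aldehyde oxidase Aox1 (3.19 ± 0.28) and the epoxide hydrolase Ephx1 (2.08 ± 0.08). Of 10 microsomal and other glutathione transferases 7 rose and 1 fell, with Mgst2 at 2.43 ± 0.29 and Mgst1 at 1.54 ± 0.10. Glutathione synthesis and recycling had 6 up and 1 down of 12, UDP-glucuronate supply 2 up of 6, sulfotransferases and other conjugating enzymes 3 up and 2 down of 10, transporters 4 up and 2 down of 14 and xenobiotic and sterol regulators 8 up and 2 down of 14. The 24.9% of all genes that rose stands beside each of these counts. The transferase list includes Eef1g and Clic1, and the UDP-glucuronate list Gusb, Ugcg and Uggt1, not all of which are detoxifying enzymes.

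In the mean of TBBPA over days and doses, 7 of 14 regulators fell and none rose, beside 10.4% of all genes down. They were Pparg (-0.78 ± 0.14), Cebpa (-0.41 ± 0.07), the aryl hydrocarbon receptor Ahr (-0.41 ± 0.12), the glucocorticoid receptor Nr3c1 (-0.17 ± 0.04), Rxra (-0.13 ± 0.03), Nfe2l2, which drives antioxidant genes (-0.12 ± 0.04), and the Ahr partner Arnt (-0.10 ± 0.03). Of the 18 other phase 1 enzymes, 7 fell and 1 rose, with the carboxylesterase Ces1d at -0.77 ± 0.18 and the quinone reductase Nqo1 at -0.27 ± 0.08. Of 12 transporters 3 fell, the drug exporters Abcb1a (-0.45 ± 0.10), Abcb1b (-0.25 ± 0.06) and Abcc4 (-0.24 ± 0.06). Electron donors had 0 of 10 changed, UDP-glucuronate supply 0 of 6, and the remaining 3 lists 2 each. Ahr fell at D18 and D28 (-0.83 ± 0.18 and -0.86 ± 0.17) and the sterol and liver regulator Hnf4a fell at D12 (-0.87 ± 0.14) and rose at D28 (0.73 ± 0.14).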

How the data were processed

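Messenger RNA levels of 22 libraries were read from the tables the authors deposited, with groups, doses and replicate numbers from the labels. The authors' expected counts (estimated reads per gene) and FPKM values stand side by side, per the file headers. HISAT, Bowtie2 and GRCm38.p5 are named in the submitters' processing notes; aligner versions and the counting tool are not given in the sources used here. Genes that a library's table does not list were set to 0.

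After rounding, expected counts entered edgeR 4.0.16 under R 4.3.3 (TMM, filterByExpr with minimum count 10 and total 15, robust quasi-likelihood), adjusted over all genes, threshold 0.05. Control steps used the 12 control libraries (6 residual degrees of freedom), each day and the difference between days 11 groups (11), and the mean over days and the dose difference the embryoid bodies with day as a factor (13). Levels in CPM are on the TMM scale. Fits were also run on simulated counts with a single setting of spread for every gene and library. The real pairs differed in spread, so those runs do not measure the error of these tests. The members and all lists were chosen with earlier results of these data known.

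Named genes were the 6 largest rises and falls of each control step that passed (at least 1 CPM in the higher group), 4 of each per day of TBBPA with no overlap, 6 of each in the mean with the same sign in 4 of 5 days, the 4 of smallest p between days and doses, the 3 on each side of the FPKM limit and the 10 of highest mean FPKM. Alternatives were DESeq2 1.42.0, its size factors or library size alone, no filter, limma 3.58.1 on log2(FPKM + 1), single doses, summed DMSO pairs, a replicate block and the omission of each library or day. Sums of pairs of similar copies and the split into days 4, 9 and 12 or 18 and 28 were chosen after seeing the data. A planned comparison of protein sequences was not made; shared 50-base stretches of GENCODE transcripts stand in for it.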

Additional observations from a re-analysis of the deposited data

Results flagged for a closer look

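The response to TBBPA differed between days for 3 members by a test of the difference itself in edgeR, adjusted over all genes. Cyp2s1 had the smallest adjusted p, 0.00298, with log2 changes of -0.68 ± 0.19, -0.63 ± 0.14, -1.02 ± 0.14, -0.27 ± 0.13 and 0.11 ± 0.12 from D4 to D28. Gstm1 followed at 0.00532, with -0.17 ± 0.11, -0.19 ± 0.10, -0.63 ± 0.10, 0.17 ± 0.10 and 0.02 ± 0.09, so that its fall was at D12. Gstp2 had 0.0407, and the summed Gstp1 and Gstp2 pair did not pass the same test (adjusted p = 0.0584). With each DMSO pair summed to 1 library none of the 3 passed, and Gstp2 failed to pass under 16 of 28 alternatives, Cyp2s1 and Gstm1 under 1 each.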

How the results depend on the processing

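Of 994 alternatives of 80 changes of named members, none reversed a direction, 810 kept the call and 184 did not pass. The count of members stayed within 1.5 times in 154 of 201 alternatives. With 1 library or day left out, it ranged from 27 to 32 (ES to D4), 24 to 25 (D4 to D9), 3 to 7 (D9 to D12), 8 to 11 (D12 to D18) and 22 to 25 (D18 to D28) over the control steps. With TBBPA it was 0 at D4, 0 to 1 at D9, 4 to 5 at D12, 0 to 3 at D18, 0 to 6 at D28, 4 to 11 in the mean, 0 to 1 between doses and 2 to 6 between days. The 11 came without day 9 or its 100 nM library and the 6 at D28 without its 10 nM library. DESeq2 called 7 from D9 to D12, 8 from D12 to D18, 2 with TBBPA at D4 and 1 at D18, and limma 4 at D18 and 7 between days. With each DMSO pair summed, 0 passed at D4, D9, D18, D28 and between days, and 3 at D12. The 10 nM library alone gave 0 at D4, 1 at D9, 4 at D12, 1 at D18 and 1 at D28, and the 100 nM library alone 0 at D9 and 5 at D28. The cause of these shifts was not tested, beyond fewer libraries in the fits that leave some out. Library size alone moved the median of all genes from D4 to D9 to 0.15.

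Replicate numbers are shared by the DMSO groups, but same-numbered libraries did not deviate together (correlations of -0.036 to 0.057), so they share only a number. With the replicate block, the counts over the 5 control steps were 30, 28, 13, 14 and 30. No paired analysis was possible for TBBPA because each dose at a day is 1 library. Members with few counts, such as Ugt1a6a and Cyp4b1, limit what the tests can detect.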
